A study of Mus musculus with 20 samples.

Results

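The 10 genes Cish, Socs1, Socs2, Socs3, Osm, Pim1, Pim2, Bcl2, Bcl2l1 and Mcl1 are known as feedback and survival targets of the transcription factor STAT5. They were taken by gene symbol from 49997 genes in each of 2 count tables, and the list was chosen with earlier results of these data known. All 10 passed the filter on low counts in every fit. Polyadenylated RNA was sequenced from mouse bone marrow cells that had been sorted and cultured. HSC were sorted as CD201+CD150+Kit+Sca1+Lineage- immunophenotypic stem cells. HPC were progenitors of the same Kit+Sca1+Lineage- gate without CD201 and CD150. In each population, wild-type cells (WT) were set beside cells with a heterozygous (het) and cells with a homozygous (hom) Runx2 knockout, with 3 libraries in each of the 6 groups. Both Runx2-flox mice and CRISPR were used in the series, and which of these made a given library is not in the labels, nor are a Cre driver, strain, age or culture time. Nothing in them tells whether replicates came from separate animals or cultures, so p-values measure only the spread between these libraries, which may be technical.

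Blood cytokines such as thrombopoietin and interleukin-3 bind receptors that activate JAK kinases, which phosphorylate STAT5a and STAT5b. STAT5 then enters the nucleus and switches on target genes. Some targets, CISH and the SOCS proteins, bind receptors or JAK kinases and dampen the signal in a negative feedback loop. Others keep cells alive: the PIM kinases phosphorylate growth and survival proteins, and BCL-2, BCL-XL (encoded by Bcl2l1) and MCL-1 hold back death through the mitochondria. Oncostatin M, encoded by Osm, is a secreted cytokine of the interleukin-6 family.

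RefSeq promoters (GRCm38.p6, 250 bases before to 50 bases after the start, 300 in all) were found for 8 of the 10 genes, 11 promoters in total, and Socs2 and Osm had no entry. The motif TTCNNNGAA, the usual STAT5 half-site pair and its own reverse complement, was present in 2 of the 11, those of Cish and Socs3, and in 8.30% of 32851 promoters of that length. The 2 promoters with the motif are shown from 250 bases before to 30 bases after the start, 280 bases each, with the motif in capitals. Both genes rose in HPC het, as did Mcl1, whose promoter had 0 matches. In the edgeR fits neither Cish nor Socs3 passed against WT in HPC hom, HSC het or HSC hom. A link between the motif and changes in level was not tested. The Cish promoter lies at chr9:107296409-107296688 (mm10, plus strand) and the Socs3 promoter at chr11:117969337-117969616 (mm10, minus strand).
Cish promoter: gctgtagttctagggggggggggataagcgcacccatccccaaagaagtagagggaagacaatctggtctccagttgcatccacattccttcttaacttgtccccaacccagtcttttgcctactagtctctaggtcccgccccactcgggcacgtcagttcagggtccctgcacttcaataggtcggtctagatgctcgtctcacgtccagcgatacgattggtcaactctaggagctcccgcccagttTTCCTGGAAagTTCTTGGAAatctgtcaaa
Socs3 promoter: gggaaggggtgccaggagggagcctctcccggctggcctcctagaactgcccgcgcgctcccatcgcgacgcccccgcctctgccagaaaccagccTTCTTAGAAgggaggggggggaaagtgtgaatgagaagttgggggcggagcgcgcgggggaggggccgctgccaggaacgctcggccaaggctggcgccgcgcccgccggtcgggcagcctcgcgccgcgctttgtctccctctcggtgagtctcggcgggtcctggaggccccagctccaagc
In Cish, TTCCTGGAA spans bases 1 to 9 and TTCTTGGAA bases 12 to 20, counted from the first transcribed base as 1. In Socs3, TTCTTAGAA begins 154 bases before the start. Here the start is that of the promoter entry. The Socs3 window lies inside the gene as counted, which spans 117966079 to 117970336 on the minus strand. The windows of Mcl1 and Bcl2l1 likewise lie inside their counted genes. The RUNX motif, TGTGGT or TGCGGT on either strand, was in 0 of the 11 promoters and in 22.4% of all promoters of that length. These matches describe letters in the window and say nothing of binding, and CUT&Tag data were not analysed here.

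The libraries held 16663497 to 27061457 counts in genes. Runx2, the targeted gene, averaged 122.1, 85.1 and 26.0 CPM in WT, het and hom of HSC and 125.9, 104.0 and 23.5 CPM in the same genotypes of HPC (CPM are counts scaled to library size with TMM factors). It fell by log2 -2.20 ± 0.08 (SE) in HSC hom and by -2.42 ± 0.07 in HPC hom (edgeR adjusted p = 7.54e-10 and 4.26e-14). Of the sort markers, Procr (CD201) was 8.10-fold lower in WT HPC than in WT HSC and Slamf1 (CD150) 1.77-fold lower. Kit differed by log2 0.02 ± 0.07, and Ly6a, the gene for Sca1, had 0 counts in all 18 libraries and checks nothing. Ddx3y, a gene of the Y chromosome, was at 112.4 to 157.1 CPM in the 9 HSC libraries and at 0 in the 9 HPC libraries, while Xist was at 0 to 1.15 and at 2752 to 4739 CPM. Cell type and sex therefore cannot be told apart when HSC and HPC are compared. In these bulk samples, fewer cells of a type and less RNA per cell cannot be told apart either.

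The PIM kinase genes were by far the most abundant of the 10 per exon length. In WT HSC the mean RPKM (CPM per kilobase of exon, n = 3) was 357.8 for Pim2 and 286.7 for Pim1, and the libraries of the 2 genes did not overlap. Mcl1 followed at 51.2, Socs2 at 26.3, Cish at 15.2, Osm at 15.0, Bcl2l1 at 10.6, Socs1 at 8.44, Socs3 at 7.62 and Bcl2 at 4.48. In WT HPC the order differed: Pim1 led at 198.4, ahead of Pim2 at 144.6, Mcl1 at 48.9 and Bcl2 at 23.2. Bcl2l1 stood at 12.2 to 13.6, Cish at 9.91, Osm at 6.97, Socs2 at 6.41, Socs1 at 4.05 and Socs3 at 3.39. Across the 6 group means, Bcl2 varied most, with a ratio of highest to lowest CPM of 6.71, followed by Socs2 at 4.86 and Pim2 at 4.13. Mcl1 varied least, with a ratio of 1.39.

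**Figure D1:**
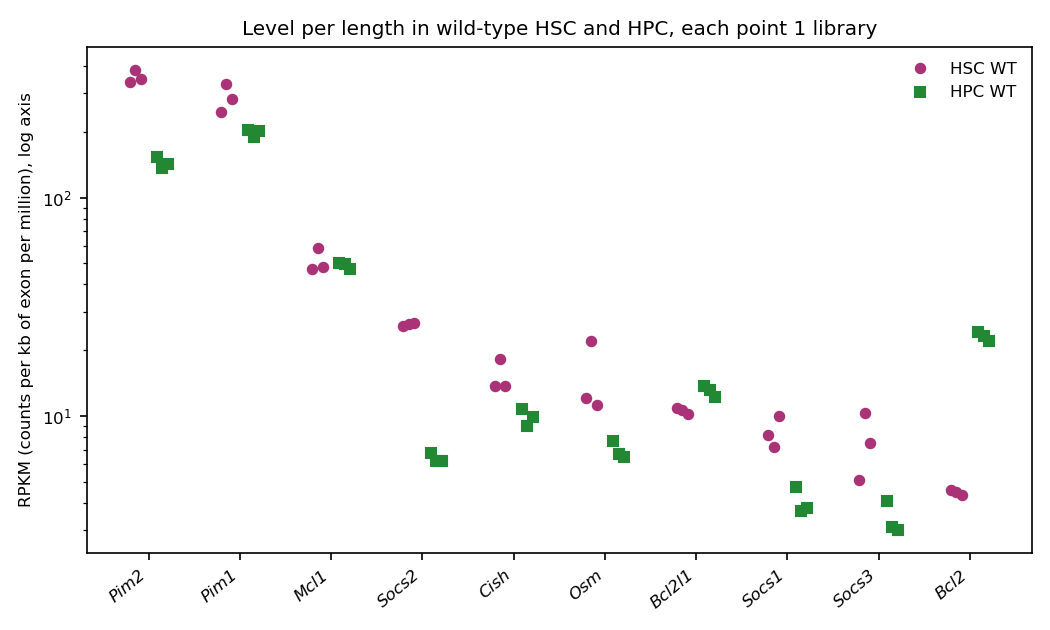
RPKM of the 10 genes on a log axis in WT HSC (circles) and WT HPC (squares), each point 1 library, genes ordered by their mean in WT HSC. Bcl2 is the lowest of the 10 in HSC at 4.48 and stands at 23.2 in HPC, while Socs2 drops from 26.3 to 6.41.

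Wild-type HSC and HPC differed in 8 of the 10 genes. Bcl2 rose in HPC, 7 genes fell (Socs2, Pim2, Socs1, Cish, Pim1, Osm and Socs3), and Bcl2l1 and Mcl1 did not pass. Of 15431 genes tested, 54.9% were called in this comparison, 27.7% as lower. The median log2 fold change of the 10 was -0.84, beside -0.03 for all genes tested. Marker lists moved in the same comparison. The 11 neutrophil and monocyte markers summed to 211.6 to 221.2 CPM in WT HSC and 1893 to 2006 in WT HPC, and 11 of 11 rose. Of 7 mast cell, basophil and eosinophil markers tested 7 rose, of 6 dendritic cell markers 5, of 5 megakaryocyte markers 3 and of 4 erythroid markers 3. Of 16 immediate early genes tested 11 fell and 1 rose, with a median log2 of -1.78. The part of these lists in the differences of the 10 genes was not tested.

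Socs2, whose product binds cytokine and growth hormone receptors and restrains growth signals (chromosome 10, 95383903 to 95417321, mm10, minus strand), was at 305.8, 314.2 and 317.5 CPM in the WT HSC libraries. In WT HPC it was at 80.4, 73.9 and 74.0. The groups lay far apart, at a 4.11-fold lower level in HPC (log2 -2.04 ± 0.08, edgeR adjusted p = 3.37e-15). Bcl2, the founding inhibitor of mitochondrial cell death (chromosome 1, 106538176 to 106714290, minus strand), was at 33.8, 32.9 and 32.0 CPM in WT HSC and at 178.6, 170.9 and 162.6 in WT HPC. Among the 8 genes called, it was the only one higher in HPC, by 5.19-fold (log2 2.38 ± 0.07, adjusted p = 3.40e-17). Pim2, a survival kinase on the X chromosome (7878306 to 7883432, plus strand), was at 692.5, 784.2 and 713.8 CPM in WT HSC and at 314.5, 279.2 and 291.7 in WT HPC (log2 -1.31 ± 0.10).

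The other 5 falls ranged from log2 -0.53 to -1.17. Socs1, an inhibitor of JAK kinases (chromosome 16, 10783808 to 10785536, minus strand), fell by log2 -1.06 ± 0.17. Its counts were few, 213 to 333 in WT HSC. Osm (chromosome 11, 4236785 to 4241026, plus strand) fell by -1.11 ± 0.23 and Socs3, which blocks signalling from the interleukin-6 receptor chain gp130 (chromosome 11, 117966079 to 117970336, minus strand), by -1.17 ± 0.28. Cish, a receptor-binding brake on STAT5 (chromosome 9, 107296659 to 107302784, plus strand), fell by -0.62 ± 0.11 and Pim1, the sister kinase of Pim2 (chromosome 17, 29490785 to 29496111, plus strand), by -0.53 ± 0.10. Of Pim1, 6.67% of the exon bases overlap another gene, Gm26885. Adjusted p was 0.00218 or less for each of these 5.

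Bcl2l1 (chromosome 2, 152758732 to 152833803, minus strand) was at 75.2 to 79.7 CPM in WT HSC and at 89.7 to 100.0 in WT HPC, without overlap (log2 0.30 ± 0.15, adjusted p = 0.0933). Bcl2l1 passed as higher with no filter on low counts (edgeR adjusted p = 0.000703) and with only the groups compared (0.000438). Mcl1, a short-lived survival protein of stem cells (chromosome 3, 95656944 to 95663179, plus strand), was at 248.2 to 308.9 and at 248.6 to 262.8 CPM (log2 -0.07 ± 0.08, adjusted p = 0.477). With library totals alone in place of TMM factors the median of all genes moved from -0.03 to -0.21, and Mcl1 passed as lower at -0.25 (adjusted p = 0.0101), close to that median. The 8 calls kept their direction under every scaling and without any 1 of the 6 libraries. Stat5a and Stat5b, the genes of the factor itself, differed by log2 0.02 ± 0.06 and 0.08 ± 0.07.

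In HPC hom, 4 of the 10 genes fell relative to WT in edgeR: Pim2, Bcl2, Bcl2l1 and Socs2. The other 6 did not pass, while DESeq2 called 6 of the 10, with Socs3 and Mcl1 as higher. In this comparison 9.21% of 13855 genes tested were called, 4.29% as lower. The median of the 10 was log2 -0.16, beside -0.00018 for all genes. The groups did not overlap for 6 of the 10, beside 26.4% of all genes.

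Pim2 was at 166.5, 211.9 and 152.9 CPM in HPC hom, beside 314.5, 279.2 and 291.7 in WT and 248.7, 279.6 and 276.5 in het. All 3 hom libraries lay below all 6 others, and Pim2 fell to 60.2% of WT (log2 -0.73 ± 0.10, edgeR adjusted p = 0.000125). This call held without any 1 library. Bcl2 was at 134.7, 131.8 and 154.5 CPM in hom, below all WT libraries (log2 -0.28 ± 0.07, adjusted p = 0.0119). Bcl2l1 was at 78.3, 81.3 and 72.5 CPM in hom and at 100.0, 96.6 and 89.7 in WT (log2 -0.30 ± 0.07, adjusted p = 0.0139). Socs2 was at 67.2, 63.1 and 62.4 CPM in hom, below the lowest WT library at 73.9 (log2 -0.24 ± 0.07, adjusted p = 0.0232). These last 3 changes were 1.18-fold to 1.23-fold, and each call was lost in some fits that left out 1 library. Bcl2 missed the threshold without HPC hom replicate 1 or 2 or WT replicate 2 (adjusted p 0.0508 to 0.0590), Bcl2l1 without hom replicate 3 or WT replicate 1 or 2 (0.0505 to 0.0659), and Socs2 without hom replicate 2 or 3 or WT replicate 1 or 2 (0.0546 to 0.0894). Without WT replicate 2, Pim2 alone of the 10 was called.

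Among the 6 genes that did not pass in edgeR, Socs3 was at 18.6, 19.9 and 13.6 CPM, beside 14.7, 11.1 and 10.8 in WT (log2 0.51 ± 0.19, edgeR adjusted p = 0.137), and the groups overlapped. It passed with DESeq2 (adjusted p = 0.0339) and with no filter on low counts (0.000374). Mcl1 was higher in all 3 hom libraries than in WT (280.4 to 297.4 CPM, log2 0.18 ± 0.06, edgeR adjusted p = 0.0715; DESeq2 0.0355), and Socs1 lower in all 3 (3.67 to 4.38 CPM, log2 -0.45 ± 0.18, adjusted p = 0.143). Log2 fold changes of Cish, Pim1 and Osm were -0.01 ± 0.08, -0.07 ± 0.07 and 0.10 ± 0.13.

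In HPC het, 3 of the 10 genes rose relative to WT, Socs3, Cish and Mcl1, and 2 fell, Bcl2 and Bcl2l1. Here 16.1% of genes tested were called, 9.15% as higher and 6.99% as lower. The groups did not overlap for 7 of the 10, beside 33.9% of all genes, and the median of the 10 was log2 0.05.

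Socs3 was at 29.0, 22.3 and 18.2 CPM in HPC het and at 14.7, 11.1 and 10.8 in WT. Every het library exceeded every WT library, by 1.89-fold on average (log2 0.92 ± 0.19, edgeR adjusted p = 0.00611). Cish was at 56.0, 54.8 and 52.3 CPM in het and at 46.3, 38.6 and 42.6 in WT, again apart (log2 0.36 ± 0.08, adjusted p = 0.00432). Mcl1 was at 296.4, 282.3 and 317.4 CPM in het, above WT at 262.8, 260.5 and 248.6 (log2 0.22 ± 0.06, adjusted p = 0.0165). The rise of Mcl1 missed the threshold without HPC het replicate 1 or 3 or WT replicate 3 (adjusted p 0.0509 to 0.0905).

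The survival genes Bcl2 and Bcl2l1 were lower in het as in hom, against the same WT libraries. Bcl2 was at 131.2, 137.3 and 124.8 CPM in het, or 76.9% of WT (log2 -0.38 ± 0.07, adjusted p = 0.000737). Bcl2l1 was at 68.1, 85.0 and 74.5 CPM, or 79.7% of WT (log2 -0.33 ± 0.07, adjusted p = 0.00513). Both calls, and those of Socs3 and Cish, held without any 1 of the 6 libraries. Pim1 was at 694.7, 554.8 and 589.1 CPM in het, with replicate 1 standing apart, and did not pass (log2 0.19 ± 0.07, adjusted p = 0.0983). Pim2, Socs1, Socs2 and Osm had log2 fold changes of -0.14 ± 0.09, 0.07 ± 0.18, 0.03 ± 0.06 and -0.08 ± 0.13.

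Between the knockout genotypes, Pim2, Cish, Socs2 and Pim1 were lower in HPC hom than in HPC het, 4 of 10, beside 9.4% of genes called and 5.77% called as lower. Cish was at 45.9, 42.2 and 38.4 CPM in hom, all below the het libraries (log2 -0.36 ± 0.08, edgeR adjusted p = 0.00702). Its mean was 42.2 CPM in hom and 42.5 in WT, so het held the highest level of the 3 genotypes. Pim2 fell by log2 -0.60 ± 0.10 (adjusted p = 0.00121), Socs2 by -0.27 ± 0.07 (0.0131) and Pim1 by -0.26 ± 0.08 (0.0356). The calls of Cish and Pim2 held without any 1 library. Socs2 missed the threshold without HPC het replicate 1 or 3 or hom replicate 3 (adjusted p 0.0506 to 0.0608), and Pim1 without het replicate 1 or without any 1 of the hom replicates (0.0575 to 0.180). The 3 comparisons within HPC share libraries in pairs and are not independent of each other.

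**Figure D2:**
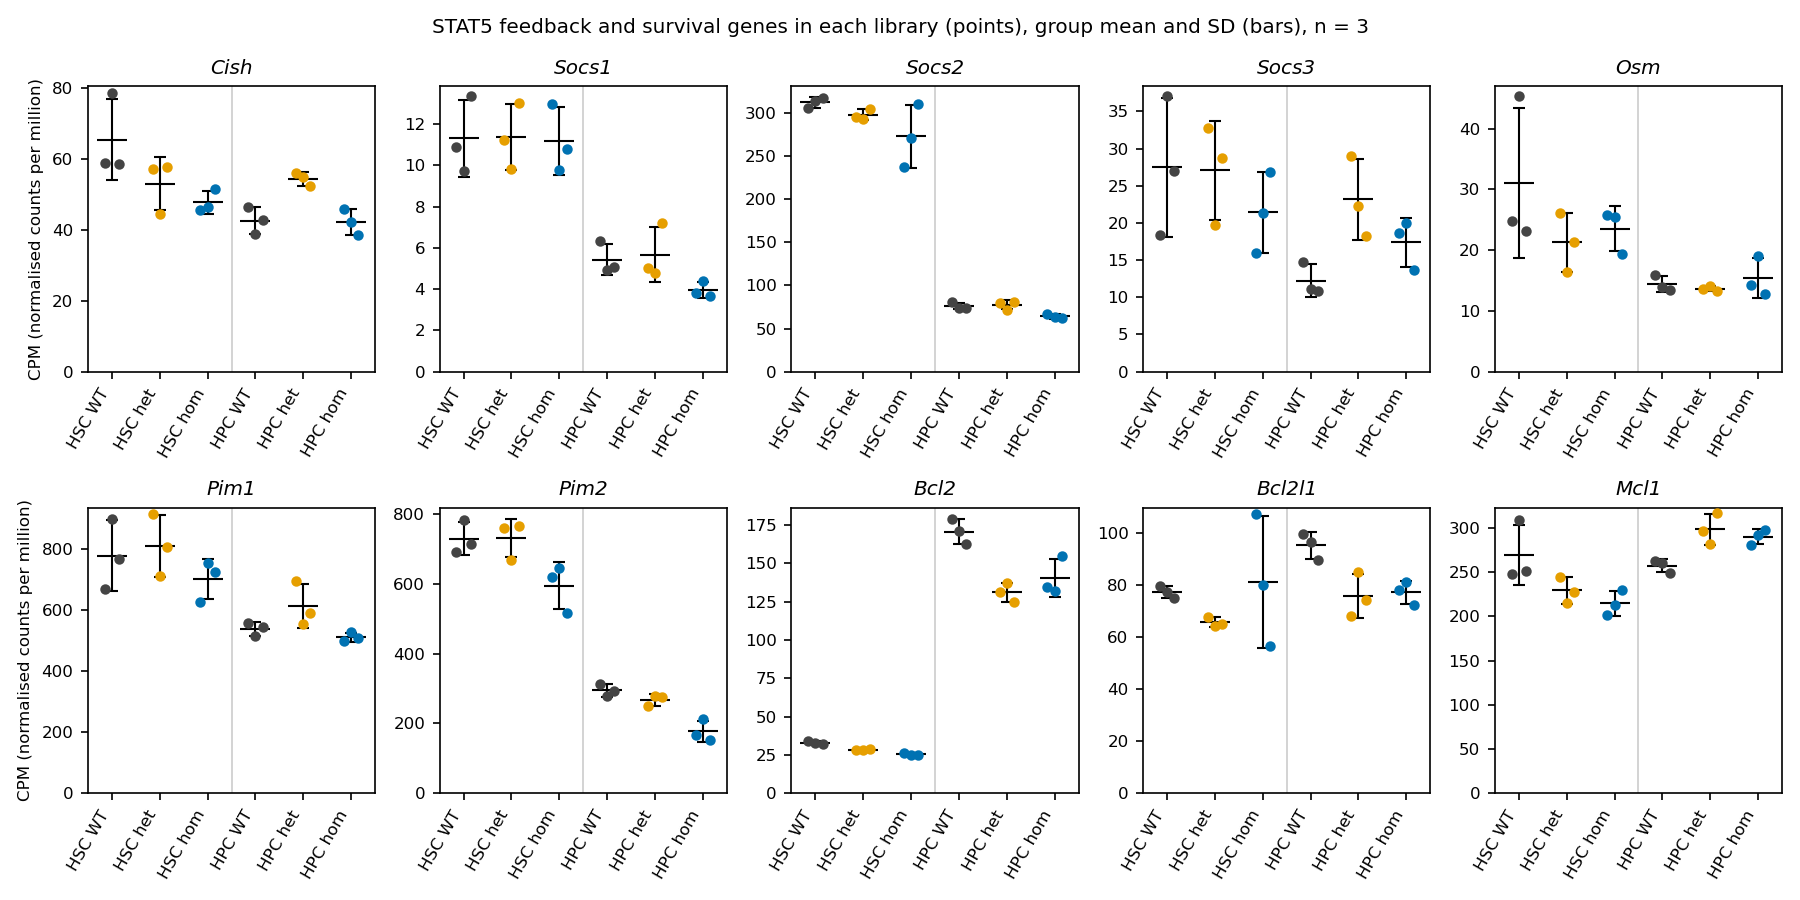
CPM of each gene in every library (points, 3 per group; black bars give the mean and SD), by cell type and Runx2 genotype, each axis from 0. In HPC, Pim2 is lowest in hom (152.9 to 211.9), Cish and Socs3 are highest in het, and Bcl2 is highest in WT (162.6 to 178.6).

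Markers of maturing blood cells moved with genotype in HPC. The 11 neutrophil and monocyte markers, among them Mpo, Elane and Lyz2, summed to 1893 to 2006 CPM in WT, 2533 to 2970 in het and 3176 to 3427 in hom, and 9 of 11 rose in het and 11 of 11 in hom. The 5 megakaryocyte markers summed to 458.5 to 530.5 CPM in WT, 238.0 to 311.5 in het and 311.9 to 462.9 in hom, with 4 of 5 lower in het and 1 of 5 in hom. Of 6 stem and progenitor markers tested, Hlf and Kit rose and Slamf1 fell in het, Slamf1 to 3.58 CPM from 10.7 in WT. In hom Hlf rose, and Mecom and Slamf1 fell, Slamf1 to 6.65 CPM. The 6 dendritic cell markers summed to 254.5 to 313.0 CPM in WT, 528.2 to 559.6 in het and 355.4 to 416.5 in hom, where 2 rose and 4 fell. In het 2 of 6 rose. The 8 mast cell, basophil and eosinophil markers summed to 336.3 to 352.3 CPM in WT, 314.6 to 334.4 in het and 403.8 to 405.9 in hom. Of 7 tested, 4 rose and 2 fell in hom, and 3 rose and 2 fell in het. The 6 erythroid markers summed to 12.4 to 14.3 CPM in WT, 8.62 to 11.8 in het and 16.9 to 21.4 in hom, and of 4 tested 1 rose in hom and 1 fell in het. The 6 T-cell markers summed to 20.3 to 23.0 CPM in WT, 12.96 to 15.8 in het and 8.95 to 13.2 in hom. Of these, Tcf7 and Lck could be tested. Both fell in hom and Lck fell in het, while the defining marker Cd3e was at 0 in every group. Among the markers of these lists, Mpo, Epx, Pf4, Gp1bb, Lck, H2-Aa and H2-Eb1 have a copy on an alternate contig, so their levels are uncertain. Of Gp1bb, 28.4% of the exon bases also overlap Septin5. In HSC hom against WT, of 5 dendritic cell markers tested H2-Eb1 and H2-Aa fell and Flt3 rose. Of 2 T-cell markers tested there, Tcf7 fell. No marker of the other lists passed in HSC hom, and no marker passed in HSC het against WT. The part of cells with these markers in the changes of the 10 genes was not tested.

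In HSC, none of the 10 genes passed the test in any genotype comparison. In hom against WT 2.01% of 14959 genes tested were called, in het against WT 0.0334% and in hom against het 0.0134%. Of the 10 genes, 4, 3 and 1 had an unadjusted p under 0.05 by edgeR, beside 18.4%, 13.8% and 11.7% of all genes. DESeq2 called 3 of the 10 in hom against WT (Bcl2, Cish and Mcl1, all lower; adjusted p 0.00727 to 0.0396) and 0 in each of the other 2 comparisons. In hom against WT 8 of the 10 had a negative log2 fold change, with a median of -0.29 beside 0.0024 for all genes.

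Bcl2 had the smallest adjusted p in HSC hom, 0.0507 (log2 -0.35 ± 0.08). It was at 26.3, 25.2 and 24.7 CPM in hom, 28.3, 28.2 and 28.5 in het and 33.8, 32.9 and 32.0 in WT, so the 3 genotypes did not overlap. Cish was at 45.6, 46.3 and 51.5 CPM in hom, 57.0, 44.3 and 57.5 in het and 58.9, 78.4 and 58.5 in WT (hom against WT log2 -0.43 ± 0.12, adjusted p = 0.0929). WT replicate 2 stood far above the other 8 libraries. Mcl1 was at 201.4, 213.3 and 229.7 CPM in hom and at 248.2, 308.9 and 251.9 in WT (log2 -0.30 ± 0.09, adjusted p = 0.0969), with WT replicate 2 again the highest. Pim2 was at 619.1, 646.6 and 518.0 CPM in hom, below WT and het (log2 -0.27 ± 0.09, adjusted p = 0.140).

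These 4 were the genes whose HSC hom and WT libraries did not overlap, beside 24.5% of all genes. Bcl2l1 spread widely in HSC hom, at 107.4, 80.0 and 56.6 CPM, around WT at 79.7, 77.6 and 75.2. Socs2 was at 237.5, 270.7 and 310.2 CPM in hom and at 305.8 to 317.5 in WT. Log2 fold changes of Socs1, Socs3, Osm and Pim1 in HSC hom were 0.00 ± 0.16, -0.34 ± 0.28, -0.38 ± 0.26 and -0.12 ± 0.12. In HSC het, Cish (-0.29 ± 0.12), Bcl2 (-0.21 ± 0.08), Mcl1 (-0.22 ± 0.09) and Bcl2l1 (-0.23 ± 0.17) lay below WT without overlap, beside 23% of all genes. The adjusted p of the 10 in het was 0.304 or more.

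**Figure D3:**
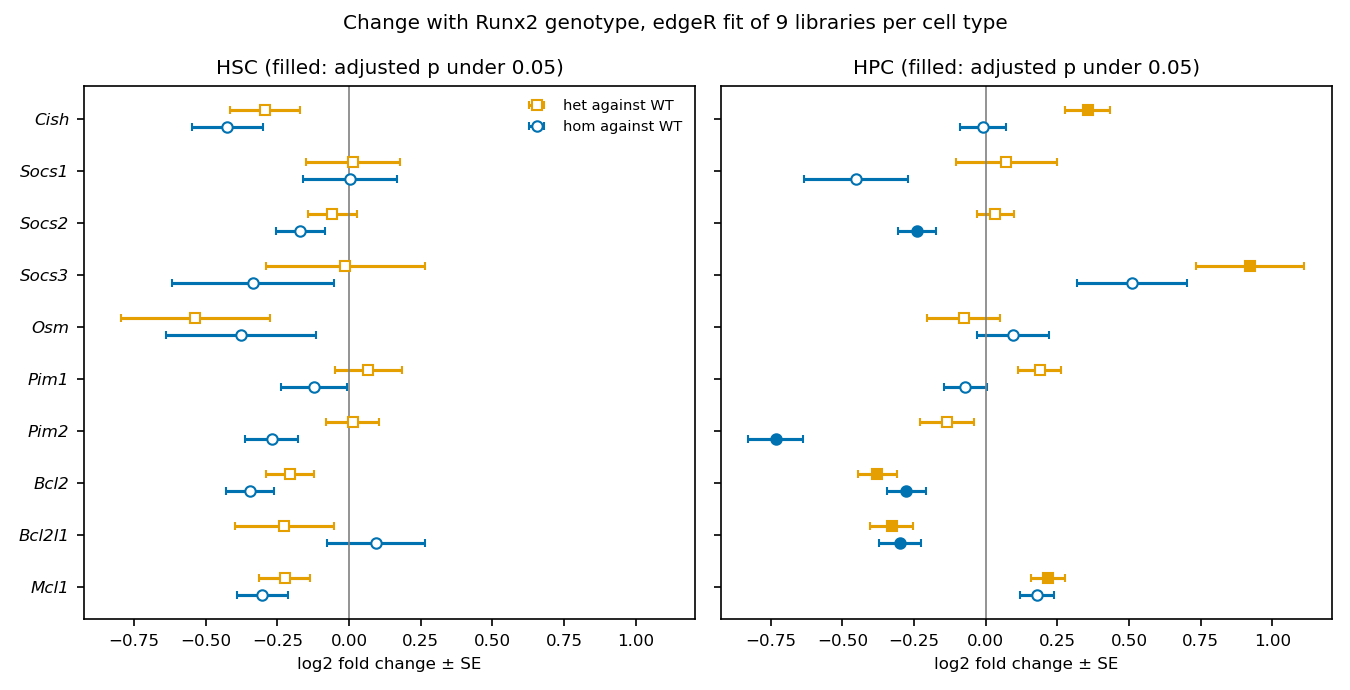
Log2 fold change against WT of the same cell type (edgeR, bars show the SE) for het (squares) and hom (circles), filled where the adjusted p is under 0.05. In HPC, Bcl2 and Bcl2l1 are filled left of 0 in both genotypes, Socs3, Cish and Mcl1 right of 0 in het, and Pim2 and Socs2 left of 0 in hom, while no symbol is filled in HSC.

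HSC WT replicate 2 also held the most RNA of immediate early genes, such as Fos, Jun and Egr1, which respond within minutes to stimulation or handling. Their summed level, over 17 genes, was 2320 CPM there and 1063 and 1374 in the other WT libraries. Het libraries of HSC held 871.1 to 1553, hom libraries 727.5 to 1144, and 421.7 to 696.8 CPM was found in the 9 HPC libraries. In HSC hom against WT 0 of 16 of these genes passed in edgeR, with 6 at an unadjusted p under 0.05 and 1 called by DESeq2. The same HSC WT library had the highest Cish (78.4 CPM), Socs3 (37.1) and Osm (45.3) of all 18 libraries. In HPC, het replicate 1 had the highest sum, 696.8, and the highest Socs3 (29.0) and Pim1 (694.7) of that cell type. Without HSC WT replicate 2, the HSC hom against WT values became smaller in size at log2 -0.27 for Cish, -0.20 for Mcl1 and -0.06 for Socs3, and Osm was at -0.00288. The part of these genes in the results was not tested further.

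**Figure D4:**
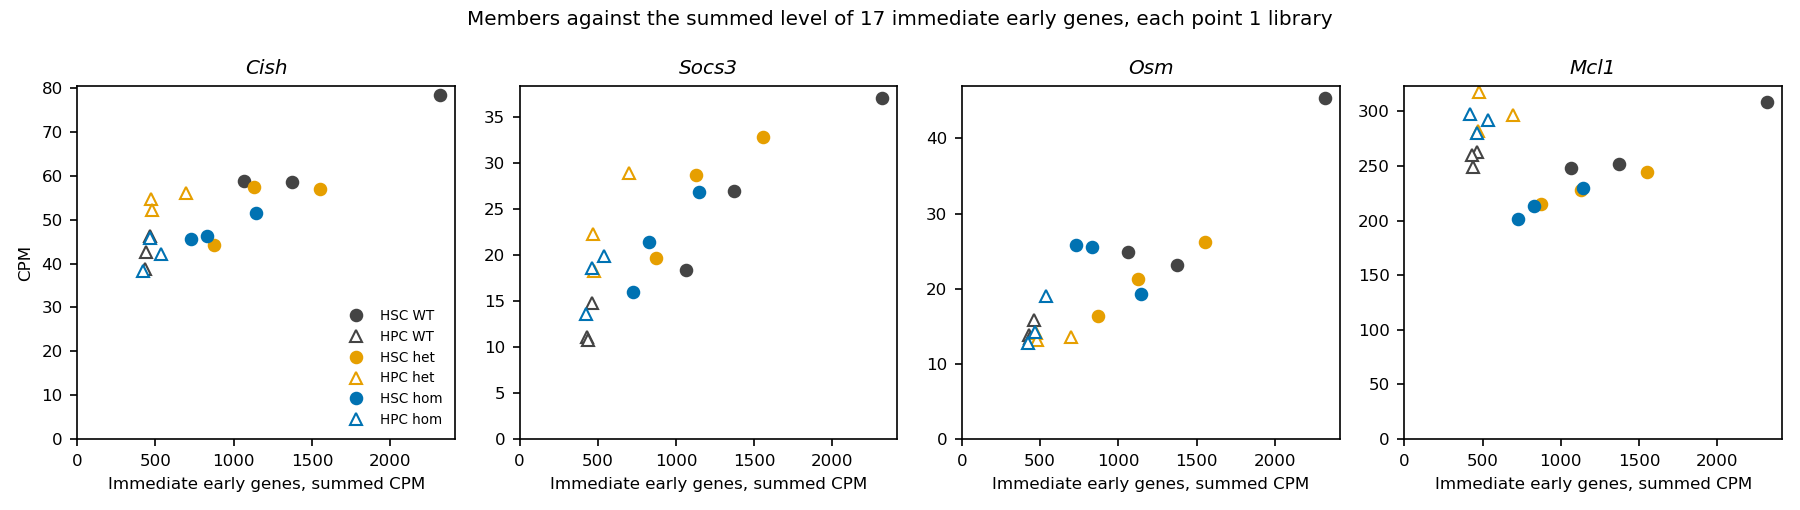
CPM of Cish, Socs3, Osm and Mcl1 against the summed CPM of 17 immediate early genes, each point 1 library (filled circles HSC, open triangles HPC; grey WT, orange het, blue hom), both axes from 0. The point at 2320 on the horizontal axis is HSC WT replicate 2, the highest library for Cish, Socs3 and Osm.

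The effect of genotype was then compared between the cell types in 1 fit of all 18 libraries. For hom against WT the effect differed for Mcl1 alone, 1 of 10 genes, beside 2.79% of 15431 genes. It was more positive in HPC by log2 0.50 ± 0.11 (edgeR adjusted p = 0.0173), where the mean of Mcl1 in hom was below WT in HSC and above WT in HPC. For het against WT it differed for Cish, by 0.65 ± 0.16 (adjusted p = 0.0310), and for Mcl1, by 0.45 ± 0.11 (0.0322), 2 of 10 genes beside 1.94%. These 2 tests share the WT libraries. With each of the 12 libraries dropped in turn, these calls missed the threshold 3, 7 and 8 times. Mcl1 in hom was lost without HSC WT replicate 2, HPC hom replicate 3 or HPC WT replicate 3. Cish in het was lost without HSC het replicate 2, HSC WT replicate 2, any 1 of the HPC het replicates, or HPC WT replicate 2 or 3. Mcl1 in het was lost without HSC het replicate 2 or 3, HSC WT replicate 2, HPC het replicate 1 or 3, or any 1 of the HPC WT replicates. Without HSC WT replicate 2 the differences were 0.39 for Mcl1 in hom (adjusted p = 0.0518), 0.50 for Cish (0.101) and 0.34 for Mcl1 in het (0.113). The hom effect of Pim2 was more negative in HPC by -0.44 ± 0.14 and did not pass (adjusted p = 0.0984).

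Genes upstream of the 10 were followed through lists of JAK kinases and STAT factors and of cytokine receptors. Of 11 JAK and STAT genes, 2 rose in HSC hom, Stat2, a factor of interferon signalling (log2 0.51 ± 0.10, edgeR adjusted p = 0.0246), and the kinase gene Tyk2 (0.34 ± 0.08, adjusted p = 0.0366). In HPC hom 0 passed, with 1 at an unadjusted p under 0.05 and 0 by DESeq2. In HPC het 3 rose, among them Stat5b, at 266.5, 297.6 and 262.0 CPM beside 219.8, 242.6 and 230.6 in WT (0.25 ± 0.06, adjusted p = 0.0110). Stat5a did not pass in either cell type, with log2 fold changes from -0.11 to 0.13. Of 18 receptor genes tested in HPC, 7 rose and 1 fell in hom, and 11 rose and 1 fell in het. Ifngr1, an interferon-gamma receptor chain, rose by 0.48 ± 0.06 in hom, Il5ra by 1.49 ± 0.20, Il6ra by 0.55 ± 0.09, and Csf2rb2, a beta chain for interleukin-3, by 0.32 ± 0.06. Csf2rb2 and its near-identical paralog Csf2rb can share reads, so its level is uncertain, and 8.08% of the exon bases of Il6ra overlap another gene. In HSC hom 1 of 17 rose, Il3ra (0.59 ± 0.09, adjusted p = 0.00626). Of the receptors for oncostatin M, Il6st (gp130) averaged 60.6 to 91.3 CPM over the 6 groups, while Osmr was at 0 counts in all groups but HSC WT, where its mean of 0.103 CPM lay under the floor of 3 counts.

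Further lists held other brakes, other targets and the rest of the BCL-2 family. Of 16 other brakes, such as the phosphatases Ptpn6 and Ptpn11, 0 passed in HPC hom (2 at an unadjusted p under 0.05, 0 by DESeq2), and 2 rose and 1 fell in het. Of 11 other genes described as STAT5 responsive, 3 fell in HPC hom: the cyclin gene Ccnd1 (log2 -1.10 ± 0.13, edgeR adjusted p = 1.38e-05), Dusp4, a phosphatase of MAP kinases (-0.79 ± 0.12), and the cell cycle inhibitor Cdkn1a (-0.23 ± 0.06). The level of Ccnd1 is uncertain because 21.7% of its exon bases overlap LTO1, and that of Cdkn1a because of a copy on an alternate contig. In HPC het, 2 of these 11 rose and 3 fell. Of 11 other BCL-2 family genes tested, Bcl2l11, which encodes the death-promoting BIM, rose in HPC hom by 0.30 ± 0.08 (adjusted p = 0.0217), and Bbc3, which encodes PUMA, fell by -0.42 ± 0.11 (adjusted p = 0.0147). Bcl2l11 also rose in het, by 0.53 ± 0.08, where 3 of the family rose and 1 fell. In HSC, 0 genes of these 3 lists passed in hom, with 2, 4 and 3 at an unadjusted p under 0.05 and 1, 3 and 1 called by DESeq2.

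The genes most like Cish and Socs2 were ranked by Pearson's r of log2 CPM over the 18 libraries, after the mean of each cell type was subtracted, among 10096 genes. For Cish these were Dusp5 (0.896), Btg1 (0.882), Btg2 (0.839), Csrnp1 (0.820) and Zfp36l1 (0.815). Among the other 9 genes, Mcl1 (0.770) and Socs3 (0.754) were the most like Cish and Bcl2l1 (-0.183) the least. For Socs2 they included Sdc2 (0.907), Krt18 (0.872), Ncam2 (0.866) and Pgr (0.862), and its highest r among the 10 was with Pim2 (0.616). These values describe likeness between genes measured in the same libraries, at the same depth and with the same normalisation. Differences between genotypes were left in, as was HSC WT replicate 2, the library with the highest Cish. Btg2 also belongs to the list of immediate early genes.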

How the data were processed

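Trim Galore 0.6.10, STAR 2.7.11a and featureCounts 2.0.6 are named in the submitters' processing notes. The values deposited by the authors are raw counts per gene, 1 table per cell type, which featureCounts made, per the file headers, from read pairs in exons with strand ignored. The notes name mm39 and the headers an mm10 annotation, and the tables' coordinates are those of mm10. The 10 genes, the lists and the tests were chosen with earlier results of these data known.

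Counts were fitted here with edgeR 4.0.16 (quasi-likelihood F test, robust, TMM factors, filterByExpr) in R 4.3.3, in 1 fit of 9 libraries per cell type and 1 of all 18, with Benjamini-Hochberg adjustment over all genes tested and calls at an adjusted p under 0.05. The fits were tested on simulated data. SE is the fold change over the root of F. Printed CPM use the factors of the 18-library fit. The genes whose groups did not overlap within a cell type were counted with the factors of the 9-library fits. A count of 0 allows up to 3 counts, 0.111 to 0.180 CPM, and this covers counting error only. No 2 libraries of a group agreed within sampling noise (chi-square per degree of freedom 4.61 to 26.9 over 18 pairs).

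Named genes are the 10, Runx2, Stat5a, Stat5b, the sort markers, up to 4 called genes per list by smallest p in hom against WT, and the 5 nearest to Cish and to Socs2, of which 1 is not reported here. Alternatives were DESeq2 1.42.0, RLE factors, library totals alone, no filter, at least 1 CPM in 3 libraries, only the groups compared, a replicate block and leaving out each library.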

Additional observations from a re-analysis of the deposited data

Results flagged for a closer look

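The hom effect on Mcl1 differed between HPC and HSC by log2 0.50 (interaction term of the 18-library edgeR fit, adjusted p = 0.0173). The het effect differed between the 2 cell types by 0.65 for Cish (adjusted p = 0.0310) and by 0.45 for Mcl1 (adjusted p = 0.0322). Each was picked out because the effect of genotype differed between the cell types by the test of the difference itself. Over the fits that left out 1 library, the differences ranged from 0.39 to 0.56, 0.50 to 0.73 and 0.34 to 0.50, and the threshold was missed in 3, 7 and 8 of the 12 fits. With the replicate block both het differences missed it as well (adjusted p = 0.0587 and 0.0628).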

How the results depend on the processing

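Of 1290 values of the 10 genes under the alternatives, 1179 kept their direction and their side of the threshold, 33 passed only there, 41 no longer passed and 37 changed sign, all 37 of values that had not passed. The number of the 10 called in HSC hom against WT was 0, and 3 with DESeq2, 4 with no filter, 1 with at least 1 CPM in 3 libraries and 0 to 1 without 1 library. With no filter 1 was called in HSC het against WT and 2 in HSC hom against het (0 to 1 without 1 library). For HPC hom against WT the 4 became 6 with DESeq2 (Socs3 and Mcl1 added, both higher), 5 with no filter and 1 to 4 without 1 library, and for HPC hom against het 5 with no filter and 2 to 4 without 1 library. The hom effect difference, 1 gene, became 2 with DESeq2, 4 with no filter and 0 to 3 without 1 library; the het effect difference, 2 genes, became 1 with library totals alone, 3 with no filter and 0 to 2 without 1 library. Over all genes, the 300 calls of HSC hom against WT became 810 with DESeq2, 898 with no filter, 155 with only the groups compared, and 48 to 638 without 1 library, lowest without HSC WT replicate 2. The 5 of HSC het against WT became 216, 399 and 299 under the same 3 settings and 2 to 7 without 1 library, and the 2 of HSC hom against het 174, 511 and 1, and 1 to 408. HPC hom against het, 1303, gave 702 to 1179 without 1 library. The hom effect difference, 431, gave 851 with DESeq2, 738 with no filter and 149 to 941 without 1 library, and the het effect difference, 300, gave 499, 592, 514 with only the groups compared, and 138 to 292.

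The replicate number did not pair the libraries: 4 of 18 same-numbered pairs correlated above 0.1 (range -0.13 to 0.23), and 6 of 18 libraries correlated best with their own number. With the replicate block the 10 genes gave 5 calls in HPC hom against WT, 5 in HPC hom against het, 9 between WT cell types and 0 for the het effect difference (adjusted p = 0.0587 for Cish and 0.0628 for Mcl1), and all genes gave 189 calls in HSC hom against WT. Socs3 in HPC hom against WT passed with the block (adjusted p = 0.00607), as did Bcl2l1 between WT cell types, higher in HPC (0.0311). Socs3 in HSC het against WT was 0.024 with the block, and Socs1 in HSC hom against WT -0.0083 with no filter.

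Signs turned without 1 library in these log2 ranges: HSC hom against WT, Socs1 -0.12 to 0.15 and Bcl2l1 -0.16 to 0.30; HSC het against WT, Socs1 -0.10 to 0.15, Socs3 -0.23 to 0.26, Pim1 -0.031 to 0.18 and Pim2 -0.026 to 0.073. HSC hom against het gave Socs1 -0.13 to 0.10. HPC hom against WT gave Cish -0.078 to 0.049 and Osm -0.10 to 0.21, and HPC het against WT Socs1 -0.15 to 0.18 and Socs2 -0.010 to 0.076. HPC hom against het gave Bcl2l1 -0.040 to 0.12, Mcl1 -0.077 to 0.0082 and Osm -0.015 to 0.30, and WT HPC against WT HSC Mcl1 -0.12 to 0.043. The hom effect difference gave Socs2 -0.14 to 0.054, Pim1 -0.042 to 0.17 and Bcl2 -0.0053 to 0.14, and the het effect difference Socs1 -0.15 to 0.18. The cause was not tested. Depth limits Socs1 most, at 67 to 137 counts in the HPC libraries.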
